A study of Mus musculus with 12 samples.

Results

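Mog, Cldn11, Enpp6, Gpr37 and Slain1 are 5 genes that were followed through bulk RNA sequencing of mouse trigeminal ganglia, the clusters of sensory neurons that supply the cornea and face. They are 5 of the 9969 genes that could be named in the deposited counts. They were chosen from the readout, and the values taken here as those that chose them are that each was high 2 weeks after a corneal wound against control and low in wounded mice that had received electrical stimulation against wounded mice. The values of those contrasts are therefore given as a description, with no test. Of the 5, Mog, Cldn11, Enpp6 and Gpr37 stand on a list of oligodendrocyte lineage genes, whereas Slain1 stands on none of the marker lists used.

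The 12 libraries fall into 4 groups of 3, all from female C57BL/6J mice aged 8 weeks. Control mice were untreated. The injury group was sampled 2 weeks after a keratectomy, an abrasion 1.5 mm wide that took the epithelium and upper stroma of a randomly chosen eye. The group with both injury and stimulation, called the group with both below where values are listed, had the same wound and electrical stimulation at 300 µA (20 Hz, 4 min each day for 14 days), and the group with stimulation alone, or stimulation group, had the same current without a wound. Wounded mice also received ketamine, xylazine and an analgesic, and stimulated mice had isoflurane at every session, so these exposures cannot be told apart from the wound and the current. Sham electrodes are mentioned by the submitters, but no library is labelled with them. The number of mice, the side of the ganglion and the length of nerve root behind each library are details not given in the sources used here, and p-values therefore reflect the spread among libraries, which may in part be technical. Although the series title speaks of diabetic neuropathy, no label mentions diabetes.

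Counted reads ranged from 7952798 to 10751547 per library. Of 20 sensory neuron markers listed, 8 could be measured, and their summed level lay between 5436 and 12254 CPM, which are counts scaled to the depth of each library, in all 12 libraries. No marker measured on any list was at 0 in every library. Among controls, the skeletal muscle genes stood apart in replicate 3. There Atp2a1, a calcium pump of muscle, had 414.7 CPM against 33.0 and 2.84 in the other control libraries. In the injury group Atp2a1 had 59.8, 194.7 and 102.6 CPM. The summed level of the 3 muscle genes measured was 5.0 to 605.4 CPM in controls and 109.4 to 334.7 in the injury group. It was 3.31 to 62.5 in the group with both and 3.09 to 52.2 in the stimulation group.

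Oligodendrocytes wrap axons of the central nervous system in myelin, and Schwann cells do the same in peripheral nerves. The sensory root of the trigeminal nerve holds both: near the brainstem, at the transition zone, Schwann cell myelin gives way to oligodendrocyte myelin, with astrocytes on the central side. The ganglion itself lies on the peripheral side, where its neurons are wrapped by satellite glia, and meninges cover the root. Mog encodes a glycoprotein on the outermost face of central myelin. Cldn11 encodes the claudin that seals the layers of central myelin with tight junctions, and it is also made in the arachnoid layer of the meninges. Enpp6 encodes a choline phosphodiesterase that marks newly forming oligodendrocytes. Gpr37 encodes an orphan receptor of oligodendrocytes that restrains their maturation. Slain1 encodes a protein that promotes growth of microtubule plus ends.

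Each gene was read through the part of its exons that fell under a counting interval, because the reads appear to lie on GRCm38 coordinates while the counting intervals are those of GRCm39. This is inferred from the counts: the 36% of 56904 nuclear intervals that overlap a GRCm38 exon held 98.6% to 99.3% of nuclear counts in each library. Mog lies on GRCm38 chromosome 17 at 37010743 to 37023398 on the minus strand and was counted through 114 coding bases of exon 3 of 8. Cldn11 lies on chromosome 3 at 31149920 to 31164324 on the plus strand and was counted through 165 coding bases of exon 2 of 3. Enpp6 lies on chromosome 8 at 46986887 to 47096762 on the plus strand and was counted through 110 bases of exon 4 and 55 bases of exon 5 of 8, all coding. These intervals were deposited under the identifiers of Gm20523, Skil and Primpol, so the letters are shown to make clear which RNA the counts came from. Another 42 bases of Mog lay under an interval with the identifier of Gm20549. Its counts were 71.6% to 91.8% of those used here, and the same reads can be counted in both. The sequences are from GENCODE M21 transcripts, 5′ to 3′ on the strand of the gene.
Mog exon 3 (chr17:37017488-37017601, minus strand): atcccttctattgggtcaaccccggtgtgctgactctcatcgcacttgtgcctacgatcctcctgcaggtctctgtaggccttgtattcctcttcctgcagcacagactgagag
Cldn11 exon 2 (chr3:31153914-31154078, plus strand): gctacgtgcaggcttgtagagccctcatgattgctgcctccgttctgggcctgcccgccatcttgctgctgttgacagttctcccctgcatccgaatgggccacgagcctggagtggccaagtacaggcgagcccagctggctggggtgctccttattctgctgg
Enpp6 exon 4 (chr8:47065372-47065481, plus strand): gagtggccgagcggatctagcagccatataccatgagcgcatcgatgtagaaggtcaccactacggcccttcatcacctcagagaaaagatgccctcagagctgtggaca
Enpp6 exon 5 (chr8:47065996-47066050, plus strand): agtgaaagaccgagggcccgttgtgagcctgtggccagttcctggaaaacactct

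Gpr37 was the only 1 of the 5 counted under its own identifier, through 6065 of its 6068 exon bases, 1873 of them coding (chromosome 6, 25665878 to 25690729, minus strand). Slain1 lies on chromosome 14 at 103650228 to 103704907 on the plus strand. It was counted through 143 bases of the 3′ untranslated part of exon 7 of 7, at 103704046 to 103704188, under the identifier of Gm34907. With pieces so short against reads of 150 bases, levels are compared within a gene and not between genes. All 5 passed the filter on low counts. Their counts ran from 19 for Enpp6 in injury with stimulation to 4677 for Gpr37 in injury.

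Levels are given in CPM after scaling between libraries by the trimmed mean of M-values (TMM), with the standard deviation of n = 3 libraries. Mog stood at 36.5, 25.3 and 24.2 CPM in controls, at 149.1, 77.2 and 132.7 in the injury group, at 16.4, 39.98 and 19.5 in the group with both and at 34.7, 43.7 and 22.7 in the stimulation group. Every injury library lay above all 9 others, and the other 3 groups overlapped. Its means were 28.7 ± 6.79 in controls, 119.7 ± 37.7 in the injury group, 25.3 ± 12.8 in the group with both and 33.7 ± 10.5 in the stimulation group. In bulk tissue, fewer cells of a type and less RNA per cell cannot be told apart.

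Cldn11, the tight junction claudin, stood at 116.6, 72.4 and 69.1 CPM in controls, 377.3, 221.2 and 356.6 in the injury group, 45.5, 116.5 and 54.9 in the group with both and 105.4, 144.3 and 74.3 in the stimulation group. Its group means were 86.0 ± 26.6, 318.4 ± 84.8, 72.3 ± 38.6 and 108 ± 35.1 in that order. As for Mog, injury replicates 1 and 3 were the highest of the 12 libraries, injury replicate 2 came next, and the other 3 groups overlapped.

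Enpp6, the marker of newly forming oligodendrocytes, was the lowest in counts. It had 6.54, 2.96 and 5.74 CPM in controls, 23.4, 10.8 and 19.9 in the injury group, 2.41, 6.11 and 2.95 in the group with both and 5.33, 5.95 and 4.22 in the stimulation group. The group means were 5.08 ± 1.88, 18.03 ± 6.48, 3.82 ± 2.00 and 5.17 ± 0.880. Its injury libraries also lay above all 9 others.

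Gpr37, the orphan receptor, stood at 161.4, 96.7 and 95.5 CPM in controls, 518.8, 278.9 and 506.4 in the injury group, 81.4, 170.4 and 103.5 in the group with both and 192.3, 265.7 and 151.6 in the stimulation group. Its means were 117.9 ± 37.7, 434.7 ± 135, 118.4 ± 46.4 and 203.2 ± 57.8. Injury was again above the other 9 libraries, but the highest library with stimulation alone, at 265.7 CPM, came close to the lowest of injury, at 278.9.

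Slain1, the microtubule gene, stood at 15.3, 7.17 and 10.3 CPM in controls, 52.0, 27.4 and 46.2 in the injury group, 9.4, 16.3 and 8.74 in the group with both and 12.9, 19.9 and 9.15 in the stimulation group. Its means were 10.9 ± 4.10, 41.9 ± 12.9, 11.5 ± 4.19 and 14.0 ± 5.43. For each of the 5 genes the order of group means began with injury, followed by stimulation alone. For Mog, Cldn11 and Enpp6, control came next and injury with stimulation last, and for Gpr37 and Slain1 these were exchanged. Apart from injury against stimulation alone, no neighbours in that order were free of overlap.

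**Figure D1:**
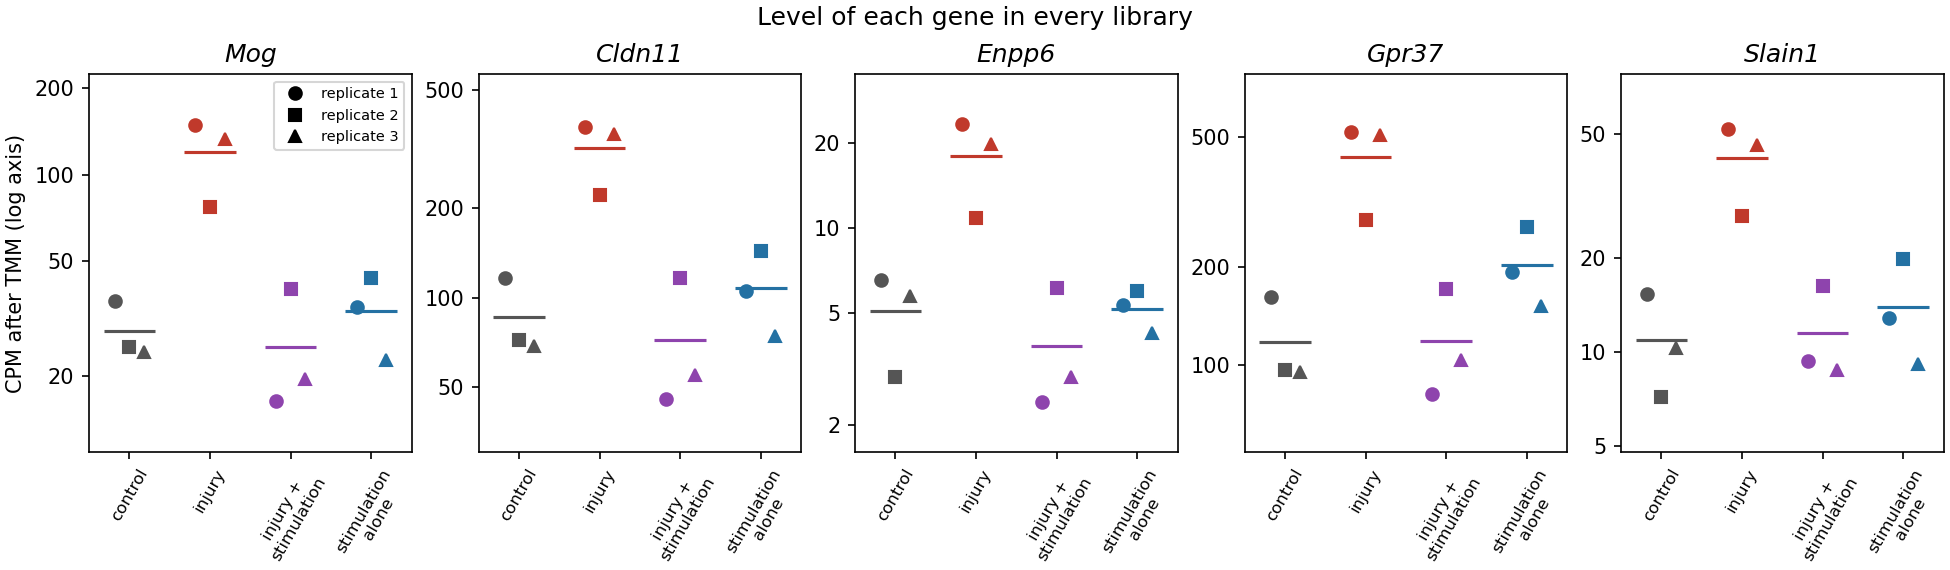
Level of each of the 5 genes in CPM after TMM scaling, on a log axis with its own range in each panel, in 4 groups of 3 libraries; symbols mark the replicate number and lines the group mean. The 3 injury libraries lie above the other 9 in every panel, with replicate 2 the lowest of them.

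The log2 fold changes against control after injury are taken as values that chose the genes, and are given with standard errors as a description. Mog had 2.06 ± 0.33, Cldn11 1.89 ± 0.34, Enpp6 1.82 ± 0.38, Gpr37 1.88 ± 0.31 and Slain1 1.94 ± 0.34. All 5 were called higher (adjusted p under 0.05), where 19.3% of the 13053 intervals tested were called higher, and the choice of the genes fixed this. Their median was 1.89, and the median of all intervals was 0.03. In all 5 genes every injury library lay above every control, as it did in 28.8% of intervals.

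Injury with stimulation against injury was also taken as a contrast that chose the genes. Mog had a log2 fold change of −2.24 ± 0.33, Cldn11 −2.14 ± 0.34, Enpp6 −2.22 ± 0.39, Gpr37 −1.87 ± 0.31 and Slain1 −1.86 ± 0.34. All 5 were called lower, against 1.50% of intervals, and all 5 lay below injury in every library, against 10.1%. Both contrasts share the 3 injury libraries. Against control, injury with stimulation gave −0.18 ± 0.33 for Mog, −0.25 ± 0.33 for Cldn11, −0.40 ± 0.40 for Enpp6, 0.01 ± 0.30 for Gpr37 and 0.08 ± 0.34 for Slain1, and in each gene the libraries overlapped, where 17.6% of intervals lay above control in every library and 15.2% below. None of the 5 was called in that comparison, where 17.2% of intervals were called. Without replicate 2 of injury with stimulation these values were −0.70 for Mog, −0.80 for Cldn11, −0.94 for Enpp6, −0.37 for Gpr37 and −0.29 for Slain1. That library was the highest of its group for all 5 genes.

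Stimulation alone against control was taken as not used to choose the genes, which the sources do not state outright, and the p-values below hold only if so. Its controls also enter the contrasts that were used. By edgeR's quasi-likelihood test with Benjamini-Hochberg adjustment over all 13053 intervals, none of the 5 passed, where 29.8% of intervals did. Gpr37 had the largest difference of the 5, 0.79 ± 0.30 on the log2 scale (adjusted p = 0.059, unadjusted p = 0.018), with 2 of 3 stimulated libraries above every control. Cldn11 had 0.33 ± 0.33 (adjusted p = 0.50), Slain1 0.34 ± 0.34 (adjusted p = 0.48), Mog 0.23 ± 0.32 (adjusted p = 0.64) and Enpp6 0.02 ± 0.39 (adjusted p = 0.98). All 5 overlapped with control, where 26.1% of intervals lay above it in every library. The median of the 5 was 0.33, and that of all intervals 0.03. Gpr37 crossed the threshold without control replicate 1 (adjusted p = 0.024), without injury replicate 2 (0.037), without replicate 3 of stimulation alone (0.033), and under 4 other settings given at the end, so its call depended on the setting.

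**Figure D2:**
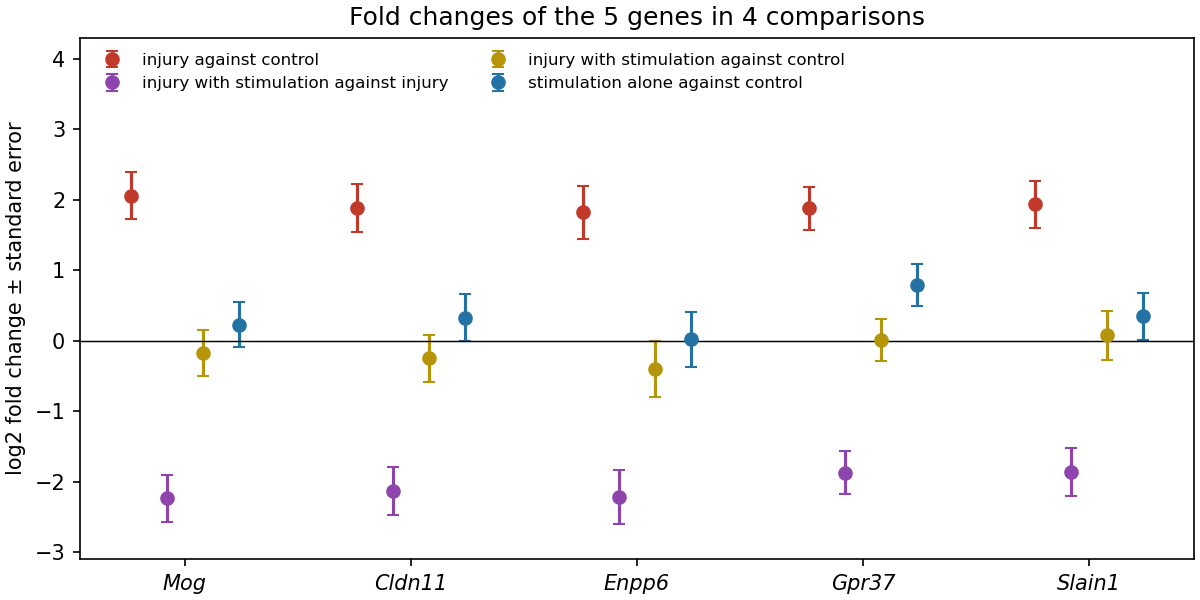
Log2 fold change of each gene in 4 comparisons from 1 edgeR fit of 12 libraries; points are estimates and bars are standard errors. The first 2 comparisons, taken as those that chose the genes, lie between 1.82 and 2.06 and between −2.24 and −1.86. The other 2 lie between −0.40 and 0.79.

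The 5 genes moved together from library to library within a group, which the choice by group contrasts did not use directly. All 5 were highest in replicate 1 among controls, in replicate 1 after injury, in replicate 2 after injury with stimulation and in replicate 2 with stimulation alone. After injury the order of the libraries was the same for all 5 genes, with replicate 3 next and replicate 2 lowest. With stimulation alone it was also the same for all 5. Over deviations from group means in 12 libraries, r between pairs of the 5 genes ran from 0.86 to 0.99 (10 pairs). Over 4543 named genes the median r with the mean of the 5 was 0.03. That is a different measure from r between pairs, for which no background was taken. These points share libraries and scaling, and the values are a description.

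Ratios between the genes varied less than their levels. Cldn11 over Mog, both proteins of central myelin, lay between 2.53 and 3.31 in all 12 libraries, a 1.31-fold range, while Mog itself spanned 9.12-fold. The same group contrasts are taken to have chosen both genes, and group differences that the genes share cancel in a ratio. A smaller range for ratios over all 12 libraries was therefore partly fixed by the choice. The ratios of Gpr37, Slain1 and Enpp6 to Mog varied more, over ranges of 1.92-fold, 2.02-fold and 2.02-fold. Gpr37 over Mog was 4.43, 3.83 and 3.94 in controls and 3.48, 3.61 and 3.82 in the injury group. It was 4.98, 4.26 and 5.31 in the group with both and 5.55, 6.09 and 6.68 in the stimulation group. All 3 libraries with stimulation alone lay above every library of the other groups. The mean ratio was 6.11 ± 0.570 with stimulation alone and 4.06 ± 0.318 in controls. The difference of 0.59 on the log2 scale had p = 0.10 by a two-sided exact permutation test, the smallest p that 3 against 3 allows, and 0.40 adjusted over the 4 ratios to Mog. Cldn11 (exact p = 0.20), Slain1 (0.70) and Enpp6 (0.80) over Mog gave larger p-values for the same contrast.

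Base composition moved with the fold changes of that contrast. Over the 86.3% of intervals with a GC value, Spearman's rho between GC content and log2 fold change was 0.50 for stimulation alone against control, 0.29 for injury against control and −0.03 for injury with stimulation against injury. The counted pieces had a GC content of 46.7% for Gpr37, 54.4% for Mog and 61.8% for Cldn11, where the median of tested intervals was 50%. After removal of the trend with GC and length, the log2 fold change with stimulation alone became 0.96 for Gpr37, −0.03 for Mog, −0.13 for Cldn11, −0.30 for Enpp6 and 0.40 for Slain1. Gpr37 and Slain1 kept their sign, and Enpp6 had been at 0.02 ± 0.39 before.

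**Figure D3:**
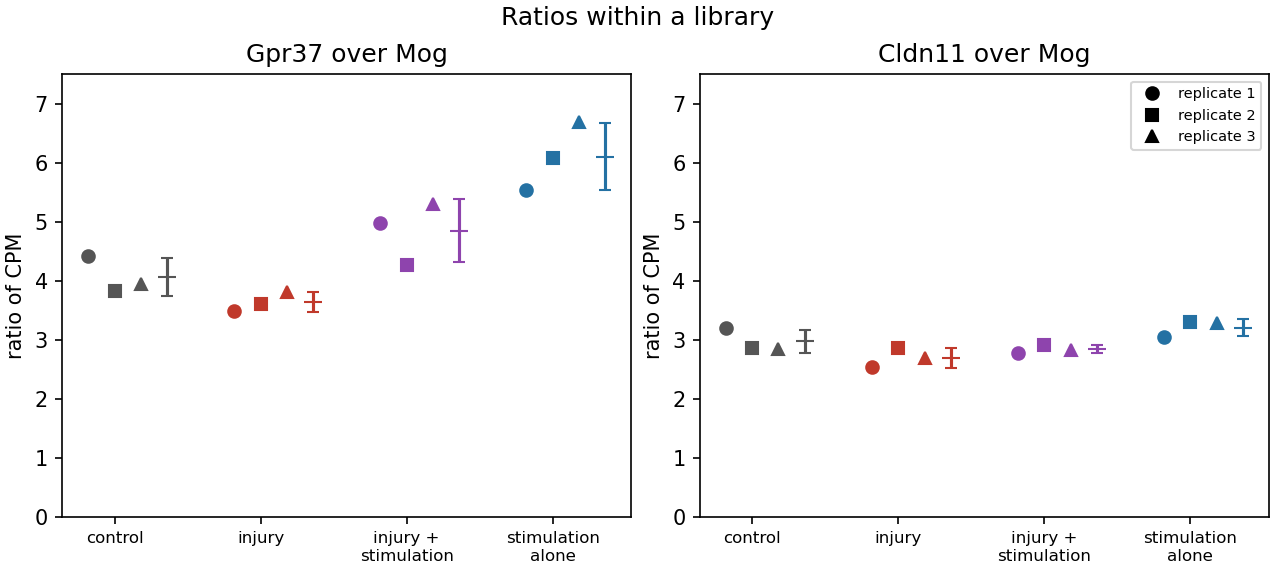
Ratio of CPM within each library for Gpr37 over Mog and Cldn11 over Mog, on linear axes from 0; symbols mark replicates, and the bars beside them the group mean ± SD of 3 libraries. Gpr37 over Mog lies between 5.55 and 6.68 with stimulation alone, above the other 9 libraries, while Cldn11 over Mog stays between 2.53 and 3.31.

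The libraries were then read one by one beside markers of the tissues that a nerve root could bring: oligodendrocytes, astrocytes, Schwann cells and meninges. The part of carried-over root in the results was not tested. Below, genes of a list that were highest or lowest in a given library are counted. The share of all intervals that were so was not taken, so these counts have no background. They cannot be told apart from a shift of the whole library. Of 15 listed genes that mark oligodendrocytes and not Schwann cells, 4 could be measured, Mog, Cldn11, Enpp6 and Aspa. Their summed level was 112.7 to 174.3 CPM in controls, 329.6 to 581.1 in the injury group, 79.9 to 174.1 in the group with both and 112.4 to 202.8 in the stimulation group. Of the 4, 3 are among the 5 chosen genes, so this sum largely restates the values that chose them. Aspa, which breaks down N-acetylaspartate in oligodendrocytes, rose after injury (0.79 ± 0.25, edgeR adjusted p = 0.025), and replicate 2 was lowest there as for the 5 genes. After injury with stimulation, however, Aspa was lowest in replicate 2, where the 5 genes had their highest library. Within groups its r with the mean of the 5 genes was −0.15.

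Astrocytes are found on the central side of the transition zone. The summed level of 7 of 18 listed astrocyte genes was 71.1 to 101.4 CPM in controls, 175.5 to 239.9 in the injury group, 96.7 to 110.5 in the group with both and 133.4 to 220.4 in the stimulation group. Of the 7, 6 rose after injury (19.3% of intervals did), 2 fell in wounded mice with stimulation (1.50%) and 5 rose with stimulation alone (18.2%). Agt, the angiotensin precursor of astrocytes, had 104.0, 74.4 and 98.4 CPM after injury, low in replicate 2 like the 5 genes. All 7 astrocyte genes were lowest in injury replicate 2 and highest in replicate 2 of stimulation alone, as the 5 genes were, and 4 of 7 were highest in replicate 2 of injury with stimulation. Their r with the mean of the 5 genes within groups ran from 0.24 to 0.83, with a median of 0.62.

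Of the meningeal genes apart from Cldn11, 8 of 9 were highest in replicate 2 of injury with stimulation and 7 of 9 in replicate 2 of stimulation alone, where the 5 genes were highest, while 3 of 9 were lowest in injury replicate 2. Their r with the mean of the 5 within groups ran from −0.53 for Dcn to 0.71 for Slc6a20a, with a median of 0.48. Ptgds, a prostaglandin synthase of meningeal cells, had 22254, 21521 and 22182 CPM there, a 1.03-fold range, while Mog spanned 1.93-fold, Gpr37 1.86-fold and Enpp6 2.16-fold over the same libraries. With stimulation alone Ptgds had 2563, 7112 and 2685 CPM, a 2.78-fold range, highest in replicate 2 like the 5 genes. Slc6a13 and Slc6a20a, meningeal transporters named after their values were seen, had 124.7, 124.0 and 114.5 CPM and 44.5, 25.8 and 36.7 CPM after injury, and Slc6a20a was lowest in replicate 2. The meningeal list, with Cldn11 among 10 of 20 genes measured, summed to 7978 to 8771 CPM in controls, 25144 to 26314 in the injury group, 7117 to 8604 in the group with both and 3597 to 8139 in the stimulation group. Apart from Cldn11, 5 of 9 rose after injury (19.3% of intervals did) and 6 of 9 fell in wounded mice with stimulation (1.50%). With stimulation alone none of the 9 rose (18.2% of intervals did) and 2 fell, Slc6a20a and Dcn (11.7%). Dcn, next to Ptgds in level on this list, had 0.13 ± 0.16 after injury (edgeR adjusted p = 0.58). With stimulation alone it had −1.77 ± 0.17 (edgeR adjusted p = 2.2e-05).

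The 6 measured genes of the Schwann cell list varied in different ways within groups: r with the mean of the 5 ran from −0.83 for Prx to 0.92 for Mag, with a median of −0.23. Prx has the highest level of the list. It encodes periaxin and had 2750, 4817 and 2672 CPM after injury, highest in replicate 2, where all 5 genes were lowest. After injury with stimulation it had 4096, 1767 and 2400 CPM, lowest in replicate 2, where all 5 were highest. Of the 6, 4 were lowest in injury replicate 2, and 1, Mag, was highest in replicate 2 of injury with stimulation. Replicate 2 of injury with stimulation stood low for Uchl1, an abundant neuronal hydrolase, at 2357 CPM against 5535 and 4408 in its group. The summed Schwann cell list, 6 of 20 genes, was 3185 to 4156 CPM in controls, 6710 to 8513 in the injury group, 3414 to 6524 in the group with both and 5005 to 5366 in the stimulation group. Of the 6, 5 rose after injury (19.3% of intervals did), 4 fell in wounded mice with stimulation (1.50%) and 4 rose with stimulation alone (18.2%).

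**Figure D4:**
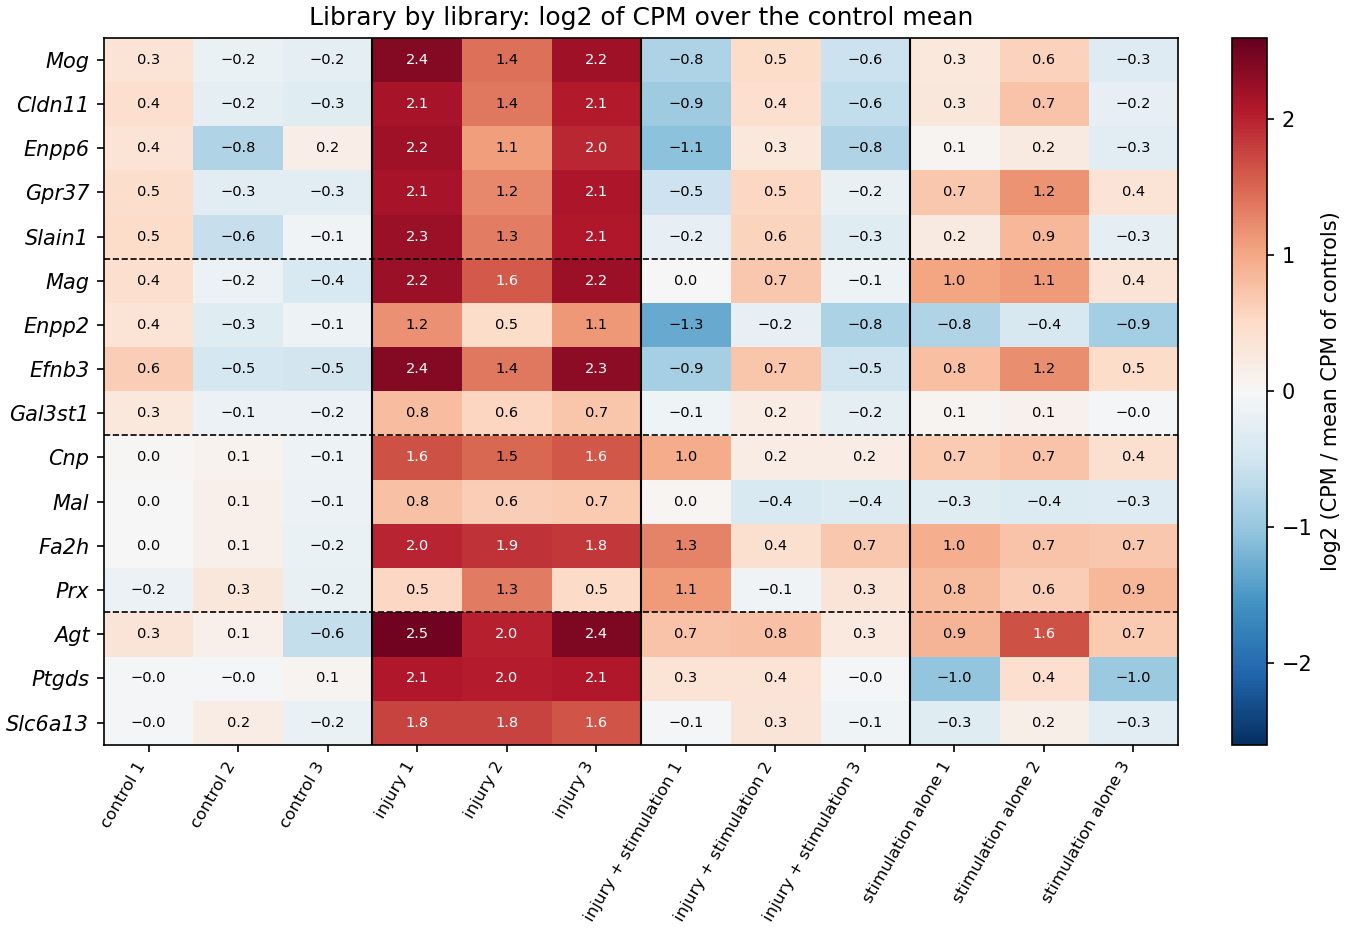
Log2 ratio of each library's CPM to the mean of the 3 controls, for the 5 genes (top block), 4 genes that follow them within groups, 4 myelin genes shared with or made by Schwann cells, and astrocyte and meningeal genes (bottom block); colour and printed values give the same quantity. Mag, Enpp2, Efnb3 and Gal3st1 were grouped because they follow the 5, although Mag also stands on the Schwann cell list. The bottom block holds Agt, Ptgds and Slc6a13, the last named after its values were seen. Slc6a20a, lowest in injury replicate 2 like the 5 genes, is not shown. Injury replicate 2 is paler than replicates 1 and 3 for the 5 genes, while Ptgds spans 1.03-fold over the 3 and Prx is highest in replicate 2.

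Of 40 listed oligodendrocyte lineage genes, 15 could be measured, and 11 of these are outside the 5. After injury 9 of the 11 rose and none fell, against 19.3% and 11.7% of all intervals, and their median log2 fold change was 0.79 against 0.03 over all intervals. In wounded mice with stimulation 7 fell and none rose, against 1.50% and 0.0383% of intervals, with a median of −0.77. Against control, Fa2h and Sirt2 were higher after injury with stimulation, as were 12.3% of intervals. With stimulation alone 4 rose, Mag, Cnp, Fa2h and Sirt2, and none fell, where 18.2% of intervals rose and 11.7% fell. Of these 4, Mag, Cnp and Fa2h also stand on the list of myelinating Schwann cell genes used here. Sirt2 does not, but absence from that list does not show where a gene is made.

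The lineage genes of highest level varied in different ways within groups. Cnp, a phosphodiesterase of myelin, had 617.0, 649.1 and 549.5 CPM in controls and 1896, 1692 and 1862 after injury, and its r with the 5 genes within groups was −0.13. Mal, a proteolipid of compact myelin (−0.32), Sirt2, a deacetylase (−0.40), and Fa2h, which hydroxylates myelin lipids (−0.45), were also below 0. Gjc3, a connexin of myelinating glia, had 0.63. In contrast, Mag, the myelin-associated glycoprotein of the innermost layer, had 0.92. Its level was 370.8, 236.3 and 365.7 CPM after injury, and it rose with stimulation alone by 0.87 ± 0.26 (edgeR adjusted p = 0.018). Enpp2, which encodes autotaxin and was named after its values were seen, had 0.97. Enpp2 had 81.2, 104.2 and 75.1 CPM with stimulation alone, below every control at 177.1, 111.7 and 127.3 (−0.68 ± 0.25, edgeR adjusted p = 0.051, which did not pass).

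The 10 genes most like the mean of the 5 were taken by r of log2 CPM over 12 libraries among 4199 genes with at least 1 CPM. They were Col11a2 (r = 0.97), Efnb3 (0.97), Gal3st1 (0.97), Trp53inp2 (0.96), Mag (0.96), Gstm7 (0.94), Unc5b (0.94), Asrgl1 (0.94), Myof (0.94) and Adssl1 (0.93). Since the group differences enter r, the within-group value was also taken. It was 0.97 for Efnb3, an ephrin of myelin that acts on axon growth, 0.93 for Col11a2, a collagen chain, 0.93 for Unc5b, a netrin receptor, and 0.66 for Gstm7, a glutathione transferase, the lowest of the 10. Efnb3 had 87.2, 41.0 and 40.5 CPM in controls, 295.5, 145.8 and 280.7 in the injury group, 30.8, 92.8 and 39.3 in the group with both and 96.3, 130.7 and 78.3 in the stimulation group. It was high and low in the same libraries as Mog. Gal3st1, the sulfotransferase that makes sulfatide, had a smaller span, from 40.6 ± 7.17 CPM in controls to 65.7 ± 5.58 after injury.

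The promoters of the 5 genes were found in the RefSeq table for GRCm38.p6 and searched on both strands, from 250 bases before the start to 50 after it, for letters bound by 3 factors of oligodendrocytes. These were CTGGCAC or CTGGTAC for MYRF, the activator of central myelin genes, ACAAAG or ACAATG for SOX proteins, and CAGCTG or CATCTG for OLIG proteins. No matches overlapped. Mog held 1 MYRF match, at position −83 from its start, and 7.10% of 32851 promoters hold at least 1. Enpp6 held ACAATG at position −219, where 28.6% hold a SOX match, and Gpr37 held CATCTG at position −102, where 30.6% hold an OLIG match. Cldn11 and Slain1 held none. The RefSeq window of Gpr37 (chr6:25689931 to 25690230) lies inside the gene span given above, within its counted piece at 25688113 to 25690728. Position −102 there is therefore not upstream of that span. The Mog and Cldn11 sequences are shown because these genes kept the steadiest ratio, as the 250 bases before the start, with the MYRF match, which lies on the other strand, in capitals.
Mog promoter (chr17:37023399-37023648, minus strand): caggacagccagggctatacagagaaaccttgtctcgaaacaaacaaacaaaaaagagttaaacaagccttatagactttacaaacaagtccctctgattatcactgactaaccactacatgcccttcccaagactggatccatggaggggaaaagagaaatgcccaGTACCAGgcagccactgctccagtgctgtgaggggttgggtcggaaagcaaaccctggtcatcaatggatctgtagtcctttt
Cldn11 promoter (chr3:31149670-31149919, plus strand): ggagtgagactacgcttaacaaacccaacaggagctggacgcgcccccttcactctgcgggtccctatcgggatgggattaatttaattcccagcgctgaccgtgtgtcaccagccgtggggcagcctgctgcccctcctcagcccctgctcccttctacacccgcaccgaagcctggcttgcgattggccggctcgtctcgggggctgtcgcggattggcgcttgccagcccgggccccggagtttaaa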

How the data were processed

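Polyadenylated RNA of 12 trigeminal ganglion libraries was sequenced as paired 150 bp reads, per the labels' protocols. The deposited values are whole counts per gene identifier, made with featureCounts 2.0.6 on Ensembl 110 gene models, unstranded and with reads allowed in several genes, per the file headers. FastQC, Salmon 1.10.2 and DESeq2 appear in the submitters' processing notes. Which aligner version and build were used is not given in the sources used here. Because the counts lie over GRCm38 exons, from which reads on GRCm38 coordinates were inferred, each interval was named by GENCODE M21 when it covered at least 100 bp of exons of exactly 1 gene, and the interval with the most exon bases took the name. Reads from the opposite strand are included.

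All 56941 intervals entered 1 fit per setting, and 13053 passed filterByExpr, 4771 of them named. The test was edgeR 4.0.16 (quasi-likelihood, robust, TMM, 12 libraries in 4 groups, R 4.3.3) with Benjamini-Hochberg adjustment, called at an adjusted p of 0.05. Standard errors are the log2 fold change over the square root of F. The biological coefficient of variation was 0.235. The scripts were tested on simulated data with known changes. Correlations used log2 CPM with a prior count of 2. Alternatives used DESeq2 1.42.0, limma 3.58.1, other filters, samples and scalings, and 12 fits without 1 library each.

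The 5 genes, the marker lists (oligodendrocyte, Schwann cell, satellite glia, astrocyte, meninges, sensory neuron, macrophage, skeletal muscle, myelin lipids and growth signals) and the tests were chosen with earlier results of these data known. Beyond the 5, values were given for the list members of highest mean CPM (up to 6 of the oligodendrocyte lineage, up to 3 of other lists) and the 10 genes most alike. Genes named outside that rule are marked as such. Some results of the myelin lipid list are not reported here.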

Additional observations from a re-analysis of the deposited data

Results flagged for a closer look

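For 12 of the 45 genes screened (26.7%), which are the 5, the list members of highest level and the 10 most alike, the difference between stimulated and unstimulated mice in the effect of the wound had every library on opposite sides: each injury library lay above the control mean, and each library of injury with stimulation lay below the mean of stimulation alone. Over all 13053 tested intervals, 2052 (15.7%) had every library on opposite sides in either direction. Of these, 1158 had the direction described, as all 12 genes did. The difference between the effects was not tested. For the 5 genes and those most like them a large difference was partly fixed by their choice, since the same group values entered it. Among the 5 genes this held for Gpr37, with an effect of 1.87 on the log2 scale without stimulation and −0.81 with it, a difference of 2.68. For the other 4 of the 5 genes at least 1 library with injury and stimulation lay above the mean of stimulation alone. Of the genes most like the 5, it held for Efnb3 with a difference of 3.16, Unc5b with 3.12, Mag with 2.70, Adssl1 with 2.50, Gstm7 with 2.16 and Trp53inp2 with 1.57. It held for each of the 3 astrocyte markers of highest level, which were the only ones of that list screened: Dao, a D-amino acid oxidase, with 3.17, Agt with 2.83 and Acsbg1, an acyl-CoA synthetase, with 1.26. It also held for Sirt2 with 1.35 and for Ngfr, a neurotrophin receptor on the list of satellite glia and nonmyelinating Schwann cell genes, with 1.1. No outlying library could be looked for, since each group has 3.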

How the results depend on the processing

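Over 105 fitted values per comparison (5 genes, 21 alternatives), the log2 fold changes of the 5 genes ran from 1.55 to 2.30 for injury against control and from −2.67 to −1.65 for injury with stimulation against injury, so each kept its sign. They ran from −0.94 to 0.40 for injury with stimulation against control and from −0.30 to 1.09 for stimulation alone against control, and signs were not kept there. The count of the 5 called with stimulation alone was 0, and became 1, Gpr37, with DESeq2 (adjusted p = 0.041), with voom and quality weights (0.010), with only the groups compared (0.043) and after removal of the GC and length trend (0.033). Leaving out 1 library gave 0 to 1, with adjusted p up to 0.29 for Gpr37.

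Replicate numbers did not pair the libraries: r between libraries of the same number, over deviations from group means, lay between −0.20 and 0.06, and not every library correlated best with its own number. With the replicate block, the calls were 3600 for injury against control, 157 for injury with stimulation against injury, 1802 for injury with stimulation against control and 3542 for stimulation alone, against 4046, 201, 2247 and 3896 without it. With the block and removal of that trend they were 2450, 88, 583 and 1555, and none of the 5 was called with stimulation alone.

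The background counts moved further under other settings. For injury with stimulation against injury, calls were 368 with DESeq2, 1043 with voom, 364 with no filter and 127 with only the groups compared, where the split of 5 higher and 196 lower became 69 and 299 with DESeq2, 221 and 822 with voom and 54 and 310 with no filter. They ranged from 5 (without replicate 3 of its own group) to 338 (without its replicate 1) when 1 library was left out, and were 44 and 91 without injury replicates 1 and 3 and 116 without replicate 1 of stimulation alone. For injury with stimulation against control, calls were 5340 with voom, 1125 with only the groups compared and 1410 after removal of the GC and length trend. They ranged from 11 (without replicate 3 of injury with stimulation) to 4349 (without its replicate 2), and were 1007 without its replicate 1, 1034 without control replicate 1 and 974 without control replicate 3. For injury against control, 1 library left out gave 2465 (without injury replicate 2) to 4847, with 2683 without control replicate 3, and the split of 2520 higher and 1526 lower became 2782 and 2621 with only the groups compared. For stimulation alone, calls were 2147 after removal of that trend, and 1 library left out gave 2640 to 4593. The causes were not tested. With counts of 19 to 59 outside the injury group, Enpp6 is limited by depth.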

Other observations

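Of 9 satellite glia and nonmyelinating Schwann cell genes, 3 rose and 3 fell after injury (19.3% and 11.7% of intervals did). None was called in wounded mice with stimulation against wounded mice, where 0.0383% of intervals rose and 1.50% fell. With stimulation alone 4 rose and 4 fell (18.2% and 11.7%). Ngfr had the largest rise among those named, 1.29 ± 0.17 with stimulation alone (edgeR adjusted p = 9.8e-05). Of 6 macrophage genes, 3 rose and 1 fell after injury, 4 fell in wounded mice with stimulation (1.50% of intervals did) and 4 fell with stimulation alone (11.7%). Ctss, a lysosomal protease of macrophages, had 85.2, 65.0 and 102.7 CPM after injury and 35.4, 34.8 and 30.0 after injury with stimulation (−1.33 ± 0.19, edgeR adjusted p = 0.0029). Of 8 sensory neuron genes, 3 rose after injury (19.3% of intervals did), 4 in injury with stimulation against control (12.3%) and 5 with stimulation alone (18.2%), where 1 fell (11.7%). None of the 3 skeletal muscle genes was called in any of the 4 comparisons. Of all intervals, 17.2% were called for injury with stimulation against control and 29.8% for stimulation alone. Shares for the other comparisons are given above. The median log2 fold change of the 3 muscle genes was −3.06 in wounded mice with stimulation against wounded mice. Standard errors there ran from 0.72 for Actn3 to 1.91 for Atp2a1. Against control the median was 0.34 after injury and −2.80 with stimulation alone.

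Of 7 genes of myelin lipid synthesis, 3 fell in wounded mice with stimulation against wounded mice (1.50% of intervals did), namely Fa2h, Gal3st1 and Cers2, and none rose. The stearoyl desaturase Scd1, with the highest level of the list, had 0.36 ± 0.14 after injury (edgeR adjusted p = 0.065). Of 3 signals on oligodendrocyte growth, Pdgfa, a growth factor of their precursors, rose after injury (0.68 ± 0.16, adjusted p = 0.0061) and with stimulation alone (0.53 ± 0.16, adjusted p = 0.022).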
